A study of Mus musculus with 3 samples.

Results

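The cells described here are endothelial cells of mouse dorsal root ganglia (DRGs) that held at least 1 transcript of a marker of arteries (Sema3g, Bmx) or of veins (Vwf, Selp). A cell entered when at least 3 of the 6 endothelial genes Pecam1, Cldn5, Cdh5, Flt1, Emcn and Ly6c1 had a unique molecular identifier (UMI, 1 captured mRNA molecule), and when mural, macrophage, neuronal and myelinating Schwann cell genes were at or near 0. Cells with more UMIs of Sema3g and Bmx together than of Vwf and Selp together were taken as the arterial kind, and cells with the reverse as the venous kind. Of the 9662 cells that passed the filter (at least 500 genes, at most 20% mitochondrial UMIs), 686 met this rule (7.10%). They comprised 262 of the arterial kind, 356 of the venous kind and 68 with equal UMIs of both pairs. A further 89 cells passed the same endothelial gates without a UMI of the 4 genes and served as the comparison.

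The study captured DRG cells in droplets (10x Chromium v3, 3′ chemistry) from wild type male C57BL/6J mice of 13 weeks. One library came from naïve, untreated mice, 1 from mice 7 days after a spared nerve injury (SNI) on both sides, and 1 from mice 14 days after it. By the labels, each library pooled the 8 L3 and L4 DRGs of 2 mice, whose cells carry no mark of the animal. The paper's methods describe younger, female mice, and its text calls the injury both SNI and a partial ligation of the sciatic nerve. The labels were followed here. No condition had a second library. All mice were perfused before dissection, and the ganglia were dissociated with collagenase and dispase. Throughout, sets of 3 values are given in the order naïve, day 7 and day 14.

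Arterial endothelium carries blood at high pressure and flow, is shaped by Notch signalling and couples its cells through connexins. Venous endothelium is specified by the transcription factor Nr2f2 (COUP-TFII) and is the usual site where leukocytes leave the blood. Capillaries form most of the surface between them, and in nerve tissue they restrict passage with tight junctions and transporters. These identities grade into each other along the vessel, so that no single gene separates them completely.

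The naïve library held 238 members, the day 7 library 172 and the day 14 library 276. The median member had 4672 UMIs in the naïve library, 4991.5 at day 7 and 5964 at day 14, and the members summed to 1469024, 1286612 and 2252031 UMIs. Median mitochondrial shares were 5.35%, 6.76% and 7.04%. Scrublet called 10 of the 686 members as doublets, against 90 of all 9662 cells, and these were kept in the main analysis. One member barcode of the naïve library also occurred among the day 14 members.

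The genes that chose the cells are given here as a description only. Sema3g, a secreted class 3 semaphorin of arterial endothelium (chromosome 14, 31217860 to 31230352 in GRCm38, GENCODE vM21), had a UMI in 422 members (61.5%) and stood at 246 CPM (counts per 1000000 UMIs of the cells summed). Bmx, a cytoplasmic tyrosine kinase of the Tec family (X, 164192842 to 164258193), was seen in 326 members (47.5%, 177 CPM). Vwf, the platelet-binding von Willebrand factor (chromosome 6, 125546774 to 125686679), was seen in 549 members (80.0%, 517 CPM). Selp, the adhesion receptor P-selectin (chromosome 1, 164115264 to 164150026), was seen in 23 members (3.35%, 9.39 CPM), so the venous kind rested almost wholly on Vwf. Pecam1, a junctional adhesion molecule, was present in 92.7% of the members and Flt1, a VEGF receptor, in 99.4%.

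The same genes were also looked for in cells picked by genes of other cell types. Sema3g had a UMI in 28.7% of 4323 cells with Mag and Prx UMIs (myelinating Schwann genes, median 3432 UMIs) and in 36.5% of 1877 cells with Fabp7 UMIs (a satellite glia gene, median 6654 UMIs), but in 3.28% of 579 cells with Csf1r and C1qa UMIs (macrophage genes, median 3841 UMIs). Its level was 89.5 CPM in the first and 67.9 CPM in the second of these cell groups. Bmx was at 0.648%, 0.213% and 0.345% of the same 3 groups, and Vwf at 13.0%, 1.55% and 3.80%. Sema3g transcripts were therefore not particular to endothelium in these ganglia, whereas Bmx was at 3.05, 0.186 and 0.561 CPM in the same 3 cell groups. The groups were not picked alike. The Fabp7 cells and the Csf1r and C1qa cells had to hold few or none of the endothelial genes, but the Mag and Prx cells did not. Flt1 was at 49.2 CPM in the Mag and Prx cells, against 2.93 and 2.80 CPM in the other groups. The part of endothelial transcripts in the Vwf and Bmx of the Mag and Prx cells was not tested.

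UMIs of both pairs were found together in 375 members (54.7%), and 53 members held at least 5 UMIs of each pair. Only the Sema3g and Bmx pair was seen in 137 members and only the Vwf and Selp pair in 174 (25.4%). A difference of 1 UMI set the kind of 175 members (25.5%), and 104 members entered with 1 UMI of the 4 genes (median depth 2667 UMIs), next to the 89 gated cells with 0 (median depth 2516 UMIs). At the endothelial gate, 13 members had exactly 3 of the 6 genes, and 11 cells had exactly 2 and met all else. The members made up 88.5% of the 775 gated endothelial cells. Before the gates on genes of other cell types, 903 passing cells had at least 3 of the 6 endothelial genes. The rule thus took in most of the gated endothelial cells, and the label of arteries and veins was met in part only. For that reason the kinds are called Sema3g/Bmx cells (arterial by the rule) and Vwf/Selp cells (venous by the rule) below.

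**Figure D1:**
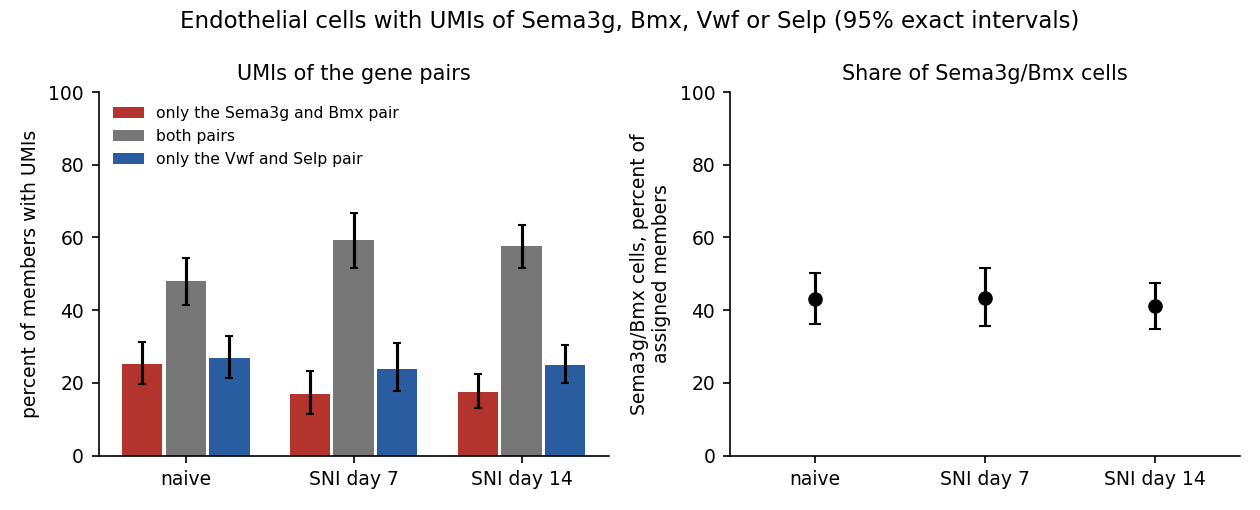
Left, percent of the members of each library with UMIs of only Sema3g and Bmx, of both pairs or of only Vwf and Selp. Right, Sema3g/Bmx cells as a percent of all members assigned to a kind. Bars and points are shares and error bars are 95% exact Clopper-Pearson intervals, which cover counting error only. Both pairs together were the most common pattern in every library (47.9%, 59.3% and 57.6%), and the Sema3g/Bmx share was 43.2%, 43.5% and 41.0%.

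The comparison of the 2 kinds asked which other genes followed the balance of the 4 marker genes. Counts were summed per library and kind, and 9810 genes that the rule did not use were tested over the 3 libraries with edgeR's quasi-likelihood test, with library as a block. At an adjusted p under 0.05, 395 genes were higher in the Sema3g/Bmx cells (4.03% of those tested) and 400 were higher in the Vwf/Selp cells (4.08%). The difference had the same direction in all 3 libraries for 379 and 387 of them. The DESeq2 test called 118 and 143, the fit without the library block 174 and 150, and the fits without the day 7 or the day 14 library 249 and 242, and 230 and 241. The 3 libraries differ in condition as well as in mice. The spread behind the p-values was estimated over all 9 sums, with information shared between genes. Each SE was derived from the test statistic of that fit. A small p-value therefore does not show that the libraries agreed. Hbb-bs, for example, had an adjusted p of 1.1e-32 by edgeR. It stood at 35.8, 40.9 and 1919.9 CPM in the Sema3g/Bmx cells and 29.6, 39.2 and 25.9 CPM in the Vwf/Selp cells.

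Genes known from arterial endothelium were higher in the Sema3g/Bmx cells as a group. The members and all gene lists were chosen with earlier results of these data known, so the list counts are a description and no independent test of the labels. Of the 32 listed genes, 31 could be tested, 23 were higher and 1 was lower (DESeq2 called 14 and 0). The median log2 fold change was 1.004 against -0.00 over all genes tested. Sema3g against Selp alone had only 9, 5 and 7 cells on the Selp side. It called 12 higher and 4 lower of 31, with 23 estimates above 0 and 8 below. Gja4, the gap junction protein connexin 37, stood at 156, 134 and 138 CPM in the Sema3g/Bmx cells and 18.0, 9.05 and 7.15 CPM in the Vwf/Selp cells (log2 fold change 3.66 ± 0.23 SE, adjusted p = 5.17e-33). No library's Vwf/Selp cells came near the lowest value of the Sema3g/Bmx cells. Vegfc, a ligand of the VEGF receptor Flt4, was at 49.0, 68.7 and 61.5 CPM in the Sema3g/Bmx cells and 2.57, 13.6 and 3.57 CPM in the Vwf/Selp cells (log2 fold change 3.27). Alpl, tissue-nonspecific alkaline phosphatase, was at 20.7, 98.4 and 75.6 CPM in the Sema3g/Bmx cells and 1.29, 3.02 and 0.893 CPM in the Vwf/Selp cells. Its naïve level in the Sema3g/Bmx cells was the lowest of the 3. Under Sema3g against Selp alone, Vegfc (log2 fold change 1.21, edgeR adjusted p = 0.627) and Alpl (6.83, adjusted p = 0.104) kept their direction but did not pass. The Notch ligand Jag1 (92.4, 193 and 144 CPM in the Sema3g/Bmx cells and 51.4, 57.3 and 34.8 CPM in the Vwf/Selp cells) and the Notch target Hey1 (143, 184 and 124 CPM in the Sema3g/Bmx cells and 34.7, 83.0 and 42.0 CPM in the Vwf/Selp cells) also did not overlap between the kinds. Here and below, a lack of overlap only describes the values of the 3 libraries. It is not a test, and its share over all genes is not given.

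The transcription factor Sox17 was at 1067, 1122 and 1308 CPM in the Sema3g/Bmx cells and 665, 733 and 815 CPM in the Vwf/Selp cells (log2 fold change 0.64 ± 0.09 SE, adjusted p = 1.06e-08). Efnb2, the ligand of the venous receptor Ephb4, was at 185, 121 and 119 CPM in the Sema3g/Bmx cells and 54.0, 54.3 and 59.9 CPM in the Vwf/Selp cells. Elastic fibre genes differed in part: Fbln5 (log2 fold change 2.05) and Fbln2 (2.12) were higher, whereas Eln, elastin itself, had 69.8, 158 and 137 CPM in the Sema3g/Bmx cells and 103, 72.4 and 116 CPM in the Vwf/Selp cells (log2 fold change 0.26 ± 0.16 SE, adjusted p = 0.463) and did not pass. Nrp1, a co-receptor for semaphorins and VEGF, was the 1 arterial-list gene that was lower in the Sema3g/Bmx cells (log2 fold change -0.34 ± 0.10 SE, adjusted p = 0.0114). Dll4, a Notch ligand, and Notch1 had log2 fold changes of 0.40 and 0.33 and did not pass. Gja5, the connexin 40 gene that marks large arteries, had UMIs in 10 cells of both kinds together, at 1.89, 9.29 and 5.3991 CPM in the Sema3g/Bmx cells and 0 in the Vwf/Selp cells of every library, and was too low to test. Gkn3 was seen in 15 cells.

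Genes known from venous endothelium went the other way without exception among those that passed. Of 28 listed genes, 22 could be tested, 19 were higher in the Vwf/Selp cells and 0 were lower there (DESeq2 called 14 and 0). The median log2 fold change was -1.23. Sema3g against Selp alone called 12 of 21 higher on the Selp side and 0 lower there, and 5 of the 21 estimates had the opposite direction. Nr2f2, the transcription factor that specifies veins, stood at 35.8, 40.9 and 73.4 CPM in the Sema3g/Bmx cells and 318, 164 and 231 CPM in the Vwf/Selp cells (log2 fold change -2.16 ± 0.16 SE, adjusted p = 6.27e-27). Its level was 434 CPM in the Fabp7 cells and 189 CPM in the Mag and Prx cells, so it too was not particular to endothelium. Plvap, which builds the diaphragms of fenestrae and caveolae, was at 121, 72.4 and 52.9 CPM in the Sema3g/Bmx cells and 333, 326 and 249 CPM in the Vwf/Selp cells (log2 fold change -1.95 ± 0.14 SE, adjusted p = 7.21e-27). Lrg1, a secreted glycoprotein of TGF-beta signalling, was at 24.5, 55.7 and 43.2 CPM in the Sema3g/Bmx cells and 113, 166 and 173 CPM in the Vwf/Selp cells. Nrp2 (log2 fold change -1.65), a co-receptor of VEGF-C, Aplnr (-1.66), the apelin receptor, and Ephb4 (-0.53) had the same direction. Il1r1, the interleukin-1 receptor, was low but did not overlap (0, 9.29 and 4.32 CPM in the Sema3g/Bmx cells and 23.1, 27.1 and 24.1 CPM in the Vwf/Selp cells).

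Ackr1, a chemokine-binding receptor of postcapillary venules, was at 1.89, 1.86 and 3.24 CPM in the Sema3g/Bmx cells and 10.3, 19.6 and 20.5 CPM in the Vwf/Selp cells and was seen in 33 cells of both kinds (log2 fold change -2.73 ± 0.62 SE, adjusted p = 0.000478). Vcam1, an adhesion molecule, overlapped between the kinds (104, 78.0 and 49.7 CPM in the Sema3g/Bmx cells and 86.1, 145 and 44.7 CPM in the Vwf/Selp cells) and did not pass (log2 fold change -0.21 ± 0.18 SE, adjusted p = 0.696). Sele, E-selectin, had UMIs in 4 cells, and Slc38a5 in 5.

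**Figure D2:**
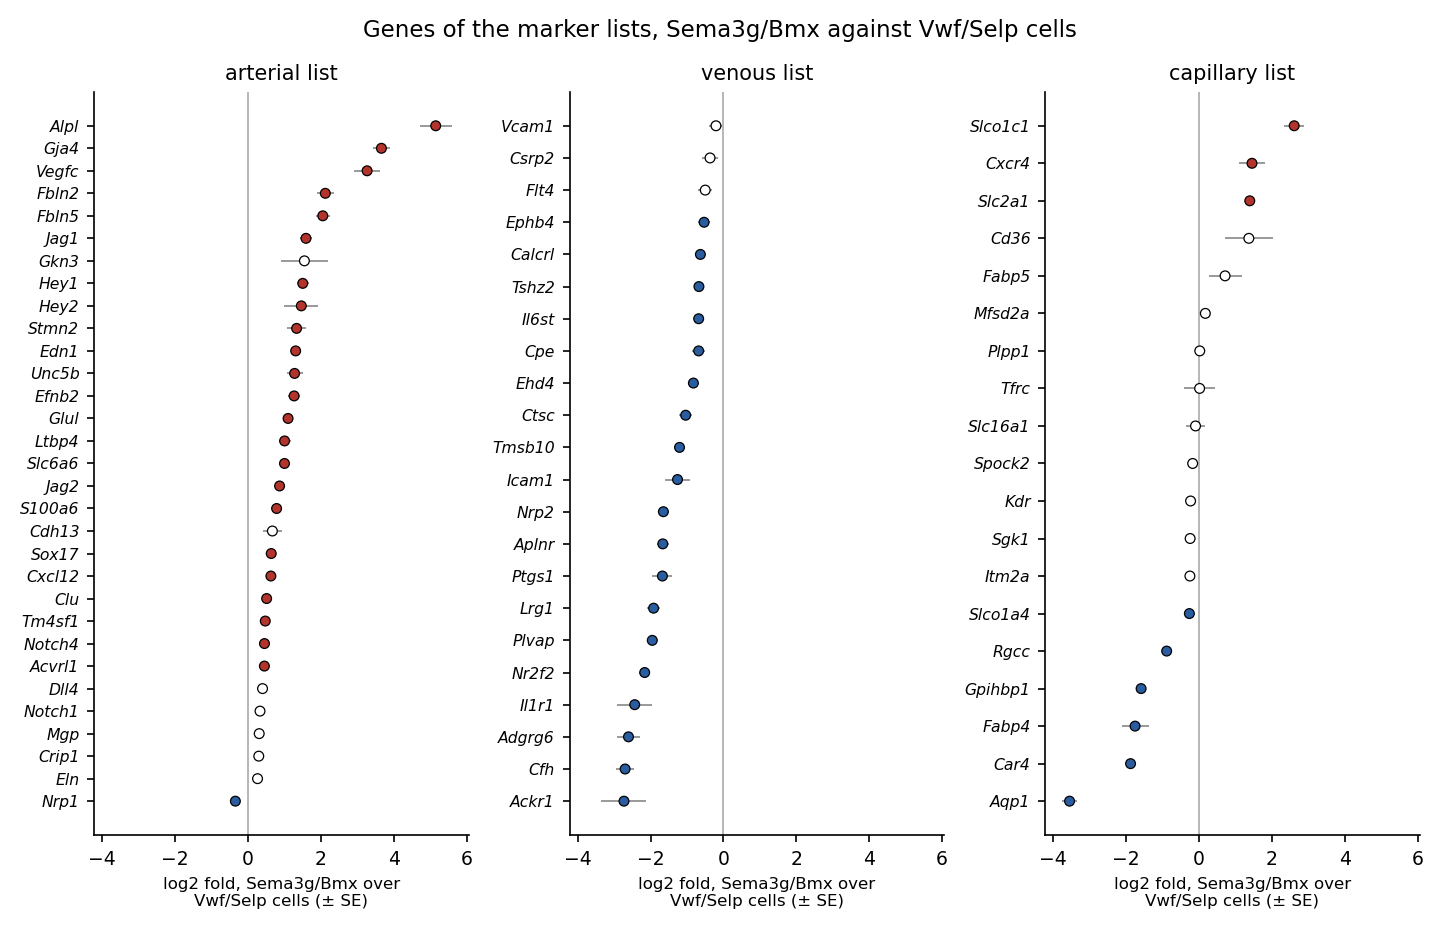
Log2 fold change, Sema3g/Bmx over Vwf/Selp cells, for the tested genes of the arterial, venous and capillary lists. Each point is the edgeR estimate over 3 libraries and each bar 1 standard error; red and blue points passed an adjusted p under 0.05 (higher and lower), open points did not. Arterial-list genes lie to the right (23 higher, 1 lower), venous-list genes to the left (0 higher, 19 lower), and capillary-list genes on both sides (3 higher, 6 lower).

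The members were also grouped by the balance of the pairs, and summed levels of other genes differed along this order, though not always in even steps. Each value is a sum over a group, so whether single cells lay between the kinds was not tested. The 5 groups ran from cells with Sema3g and Bmx alone, over those with more of that pair, equal UMIs and more of Vwf and Selp, to cells with Vwf and Selp alone, at 137, 125, 68, 182 and 174 cells. Gja4 was at 144, 140.4, 48.6, 8.85 and 15.9 CPM in that order. Nr2f2 was at 49.5, 57.6, 79.6, 182 and 379.7 CPM and Plvap at 88.1, 69.4, 88.4, 196 and 531 CPM, so both were highest where Sema3g and Bmx were absent. Ackr1 was at 2.75, 2.37, 0, 6.64 and 42.5 CPM, and 32 of its 49 UMIs lay in the last group. Hey1 fell less steeply and was at 122, 158, 124, 57.6 and 33.2 CPM. Median depth was 4060, 8937, 4275, 8628 and 3397 UMIs per cell, so the cells with both pairs were deeper than those with 1 pair, and the part of depth in this order was not tested.

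**Figure D3:**
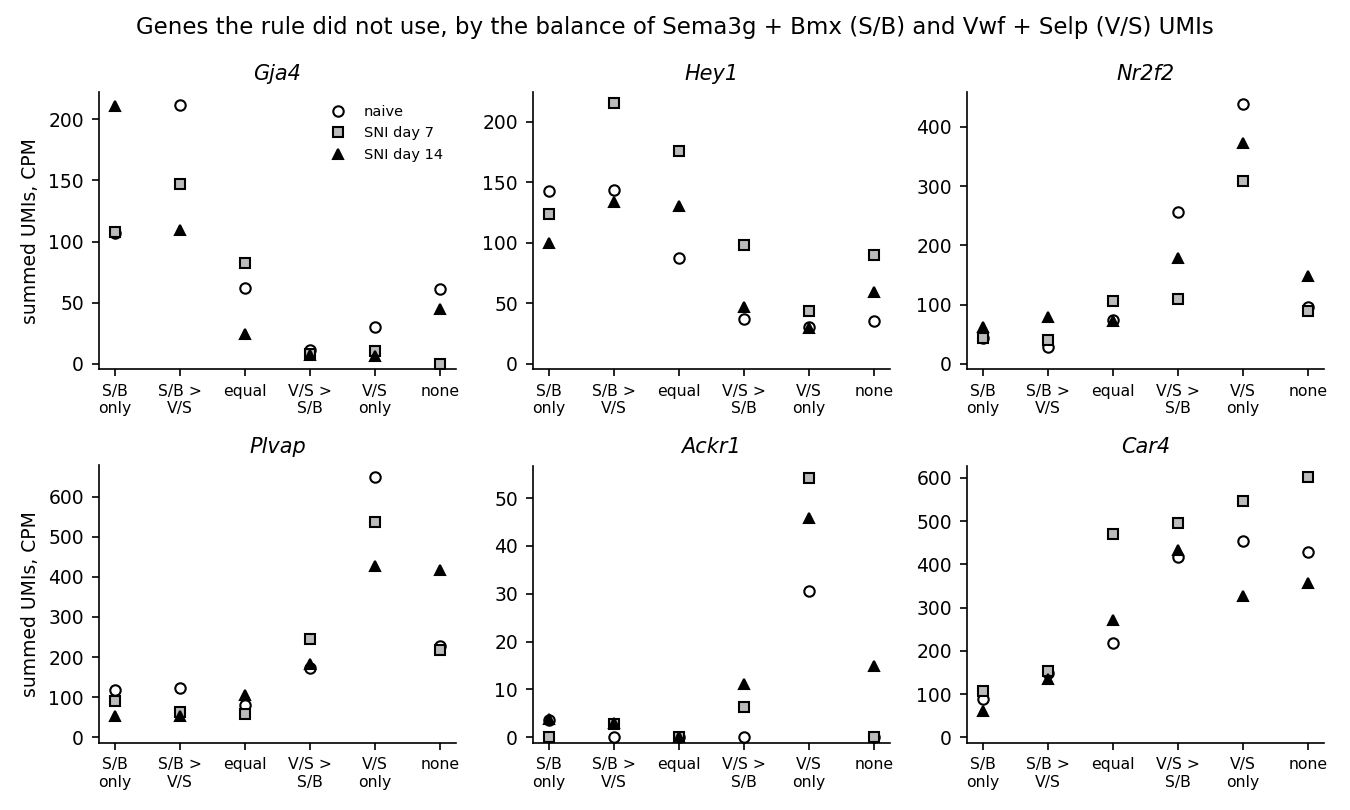
Levels of 6 genes that the rule did not use, in CPM of the summed UMIs, for endothelial cells grouped by their UMIs of Sema3g and Bmx (S/B) and of Vwf and Selp (V/S); "none" is the 89 gated cells without the 4 genes. Each symbol is 1 library, with no error bar. Gja4 and Hey1 lie high on the left, Nr2f2, Plvap and Ackr1 on the right, and Car4 rises from the left to the level of the cells without the 4 genes.

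Genes of capillaries and of the blood-nerve barrier bore on what the Vwf/Selp cells were. Of 24 capillary genes, 19 could be tested, and 3 were higher and 6 lower in the Sema3g/Bmx cells (median log2 fold change -0.17). The direction of the list turned for Sema3g against Selp alone, which rests on the few cells with Selp, at 11 higher and 2 lower of 18 (median 2.30). Car4, a membrane-bound carbonic anhydrase of capillaries, stood at 117, 137 and 114 CPM in the Sema3g/Bmx cells and 429, 509.8 and 405 CPM in the Vwf/Selp cells (log2 fold change -1.88 ± 0.12 SE, adjusted p = 4.25e-32). It was at 429, 602 and 358 CPM in the endothelial cells without the 4 genes. Rgcc, a cell cycle regulator of capillary endothelium, was at 117, 85.4 and 99.3 CPM in the Sema3g/Bmx cells and 228, 173 and 159.9 CPM in the Vwf/Selp cells and at 210.1, 256 and 223 CPM in the cells without the 4 genes. Gpihbp1, which carries lipoprotein lipase to the capillary lumen, was at 173, 61.3 and 42.1 CPM in the Sema3g/Bmx cells and 423, 163 and 187 CPM in the Vwf/Selp cells (log2 fold change -1.59). Aqp1, a water channel, was at 18.9, 3.71 and 28.1 CPM in the Sema3g/Bmx cells and 278, 190.0 and 203 CPM in the Vwf/Selp cells and at 87.5, 12.8 and 44.7 CPM in the cells without the 4 genes. On Car4 the Vwf/Selp cells lay near the remaining endothelium and on Aqp1 above it. Venous-list genes were thus higher in the Vwf/Selp cells while capillary genes were present as well, and the venous label itself was not tested.

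Barrier genes were called in both directions. Of 26 tested, 6 were higher and 5 lower in the Sema3g/Bmx cells, and the median was 0.02. The counts were 4 and 2 with DESeq2 and without the day 14 library, 5 and 2 without the day 7 library, 4 and 1 without the library block, 3 and 1 in thinned cells, and 13 and 1 (median 1.18) for Sema3g against Selp alone. Slc2a1, the glucose transporter GLUT1, stood at 1186, 1189 and 1279 CPM in the Sema3g/Bmx cells and 379, 483 and 512 CPM in the Vwf/Selp cells (log2 fold change 1.39 ± 0.10 SE, adjusted p = 2.53e-28). Slco1c1, a thyroid hormone transporter, was at 81.1, 79.9 and 65.9 CPM in the Sema3g/Bmx cells and 8.9985, 16.6 and 10.7 CPM in the Vwf/Selp cells (log2 fold change 2.61 ± 0.28 SE, adjusted p = 2.24e-15), and the transcription factors Foxq1 (log2 fold change 1.53) and Foxf2 (1.36) were also higher. Abcg2, an efflux pump, was lower (1708, 1586 and 1326 against 2232, 2093 and 1916 CPM, log2 fold change -0.46), as was Slc7a5, an amino acid transporter (-0.36). The lipid transporter Mfsd2a (0.17), the efflux pump Abcb1a (0.05) and the junction genes Tjp1 (0.23) and Esam (-0.17) did not pass.

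Genes of flow sensing and vessel tone were higher in the Sema3g/Bmx cells more often than lower. Of 19 tested, 10 were higher and 3 lower, with a median log2 fold change of 0.57 (DESeq2 called 4 and 1, cells thinned to 2000 UMIs gave 4 and 0, and the fits without the day 7 or the day 14 library gave 6 and 2, and 5 and 2). Edn1, the vasoconstrictor endothelin-1, was at 253, 195 and 313 CPM in the Sema3g/Bmx cells and 57.8, 79.9 and 159.9 CPM in the Vwf/Selp cells (log2 fold change 1.31 ± 0.14 SE, adjusted p = 4.6e-15). Klf2 (1007, 984 and 1044 CPM in the Sema3g/Bmx cells and 541, 615 and 633 CPM in the Vwf/Selp cells) and Klf4 (534, 544 and 717 CPM in the Sema3g/Bmx cells and 239, 262 and 379.7 CPM in the Vwf/Selp cells), transcription factors induced by shear flow, did not overlap between the kinds. Nos3, endothelial nitric oxide synthase, had a log2 fold change of 0.75. The potassium channel gene Kcnj2 (1.72) and the natriuretic peptide receptor Npr3 (2.58) were higher at low levels. Kcnn4, a calcium-activated potassium channel, had 31 UMIs against 3 (13.3-fold, 95% conditional interval 4.14 to 67.8), and DESeq2 did not call it (adjusted p = 0.106). Calcrl, the receptor that binds CGRP and adrenomedullin, was lower (275, 228 and 193 against 369, 388 and 305 CPM, log2 fold change -0.63), as was the natriuretic peptide receptor Npr1 (-0.59). Ramp2, the partner of Calcrl, did not pass (-0.11).

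Among 25 tested genes of Notch, BMP and TGF-beta signalling, 12 were higher and 1 was lower in the Sema3g/Bmx cells, with a median of 0.40 (DESeq2 and the fit without the block each called 4 and 1, the fit without the day 7 library 6 and 1 and that without the day 14 library 8 and 1). Besides Jag1 and Hey1, the ligand Jag2 (264, 267 and 356 CPM in the Sema3g/Bmx cells and 174, 131 and 176 CPM in the Vwf/Selp cells) and the cytokine Tgfb2 (269.6, 327 and 608 CPM in the Sema3g/Bmx cells and 243, 193 and 292 CPM in the Vwf/Selp cells) differed, the first without overlap. Acvrl1, the BMP9 receptor ALK1, and its target Id1 had log2 fold changes of 0.45 and 0.38. The exception was Bmp4, a growth factor, with 134 UMIs in the Vwf/Selp cells and 1 in the Sema3g/Bmx cells (104-fold, 95% conditional interval 18.4 to 4154). It lay at 52.7, 58.8 and 48.2 CPM in the Vwf/Selp cells, with UMIs in 34 cells of both kinds together, and at 0 CPM in the cells without the 4 genes.

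Matrix genes were mixed, with 7 of 25 tested genes higher and 3 lower (median 0.12). Col18a1, a basement membrane collagen and source of endostatin, stood at 424, 331 and 346 CPM in the Sema3g/Bmx cells and 92.6, 73.9 and 59.0 CPM in the Vwf/Selp cells (log2 fold change 2.29 ± 0.13 SE, adjusted p = 2.07e-37). Fbn1 and Fn1, fibrillin-1 and fibronectin, had log2 fold changes of 1.76 and 1.15. Bgn (-2.96), a small proteoglycan, Col15a1 (-2.58) and the basement membrane gene Nid1 (-1.27) were lower. The collagen IV genes Col4a1 (0.12) and Col4a2 (0.27) did not pass.

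Leukocyte adhesion and inflammatory genes were called in both directions. Of 20 tested, 3 were higher and 6 lower in the Sema3g/Bmx cells, with a median of -0.12 and 13 estimates below 0. Over all genes tested, 4.03% were higher and 4.08% lower. The counts for the list were 1 and 4 with DESeq2 and 0 and 6 without the library block. They were 1 and 6 in cells with at least 2 UMIs of 1 pair and none of the other, and 3 and 3 for Sema3g against Selp alone. Icam1, a ligand of leukocyte integrins, was at 17.0, 11.1 and 14.0 CPM in the Sema3g/Bmx cells and 46.3, 33.2 and 25.9 CPM in the Vwf/Selp cells (log2 fold change -1.26 ± 0.33 SE, adjusted p = 0.00371). Jam3, a junctional adhesion molecule (log2 fold change -1.28), and Ch25h, cholesterol 25-hydroxylase (-1.45), were also lower. Podxl (0.62), a sialomucin, and Cx3cl1 (0.51), the chemokine fractalkine, were higher. Cxcl10 passed in the same direction but had UMIs in 16 cells, with 91 in 1 of them.

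Of 14 tested haemostasis genes, 2 were higher and 4 lower in the Sema3g/Bmx cells. The counts were 2 and 2 with DESeq2, without the library block, and without the naïve or the day 7 library. Without the day 14 library they were 2 and 3. The higher ones were Plat, tissue plasminogen activator (315, 308 and 245 CPM in the Sema3g/Bmx cells and 104, 140.3 and 87.6 CPM in the Vwf/Selp cells), and Serpine2, a protease inhibitor (log2 fold change 1.68). Ptgis and Ptgs1, which act in turn in prostacyclin synthesis, were lower (-1.63 and -1.67), as were Tfpi (-0.75), an inhibitor of coagulation, and Anxa2 (-0.36). Thbd, thrombomodulin, had -0.03 and did not pass. Among 25 angiogenesis genes, 5 were higher and 4 lower. Esm1, a secreted proteoglycan of sprouting endothelium, was at 106, 52.0 and 49.7 CPM in the Sema3g/Bmx cells and 7.71, 7.54 and 13.4 CPM in the Vwf/Selp cells and at 87.5, 12.8 and 119 CPM in the cells without the 4 genes.

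Interferon response genes were higher in the Sema3g/Bmx cells for 8 of 16 tested and lower for 1 (median 0.43). Ifi27l2a was at 234, 141 and 110.1 CPM in the Sema3g/Bmx cells and 64.3, 64.9 and 32.2 CPM in the Vwf/Selp cells (log2 fold change 1.59 ± 0.17 SE, adjusted p = 1.79e-15) and Isg15, a ubiquitin-like modifier, at 390.3, 154 and 154 CPM in the Sema3g/Bmx cells and 169.7, 93.5 and 89.3 CPM in the Vwf/Selp cells (log2 fold change 0.93). Ly6a, the surface antigen Sca-1, was at 2457, 2013 and 2066 CPM in the Sema3g/Bmx cells and 1534, 1345 and 1407 CPM in the Vwf/Selp cells (0.58). DESeq2 called 2 of the 16 higher and 0 lower, as did the cells thinned to 2000 UMIs, and the fit without the library block called 3. Immediate early and stress genes were higher for 10 of 17 and lower for 0 (median 0.59), among them Hspa1b (log2 fold change 1.15), a heat shock protein, and the transcription factors Junb (0.99) and Fos (0.97). That count fell to 3 with DESeq2 and to 0 in the thinned cells, where 13 of 15 estimates still lay above 0.

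Genes shared by all endothelium served as a check of the scale. Of 15 general endothelial genes, 0 were higher and 1, the guidance receptor Robo4 (-0.46), was lower, and the median was -0.01. Tie1 (-0.08), Egfl7 (-0.10) and Esam lay close to 0. Antigen presentation genes gave 0 higher and 1 lower of 11, namely Cd74, with UMIs in 54 cells and 31 in 1 cell. Clock genes gave 1 each way of 13, and 0 of 4 cell cycle genes passed.

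The 12 genes with the largest log2 fold changes each way are drawn by library. With DESeq2, 20 of these genes kept their call and 4 kept the direction only. Under Sema3g against Selp alone, with its few Selp cells, 8 kept their call, 11 kept the direction only and 2 reversed. Dkk2, Ptprr, Ssu2, Pi16, Gcnt1, Gm35167 and Lgals3 were among the 11. On the Sema3g/Bmx side, Nebl, an actin-binding nebulette, was at 173, 247 and 262 CPM in the Sema3g/Bmx cells and 0, 9.05 and 9.83 CPM in the Vwf/Selp cells (log2 fold change 5.06 ± 0.24 SE, adjusted p = 4.5e-48). Dkk2, a secreted Wnt pathway modulator, was at 60.3, 66.9 and 61.5 CPM in the Sema3g/Bmx cells and 2.57, 4.52 and 5.36 CPM in the Vwf/Selp cells and the phosphatase gene Ptprr at 20.7, 31.6 and 44.3 CPM in the Sema3g/Bmx cells and 5.14, 3.02 and 1.79 CPM in the Vwf/Selp cells. Ssu2 (17.0, 31.6 and 19.4 CPM), Pi16 (3.77, 39.0 and 15.1 CPM), Gcnt1 (11.3, 24.1 and 18.4 CPM) and Gm35167 (13.2, 22.3 and 21.6 CPM) had 1 or 2 UMIs in all Vwf/Selp cells together. Their ratios per UMI were 56.5-fold (95% conditional interval 9.62 to 2281), 47.5-fold (95% conditional interval 8.01 to 1926), 23.1-fold (95% conditional interval 5.95 to 198) and 25.0-fold (95% conditional interval 6.48 to 214).

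On the Vwf/Selp side, Cyp4b1, a cytochrome P450, was at 20.6, 30.2 and 25.0 CPM and had 0 UMIs in the Sema3g/Bmx cells, which makes it at least 16.6-fold higher over the limit of 3 counts for the group. Prtg was at least 10.1-fold higher by the same limit (10.3, 12.1 and 20.5 CPM). Cyp2e1, another cytochrome P450, was at 5.66, 0 and 0 CPM in the Sema3g/Bmx cells and 93.8, 51.3 and 52.7 CPM in the Vwf/Selp cells, and at 17.5, 64.0 and 59.6 CPM in the cells without the 4 genes. Lgals3, the lectin galectin-3, was at 5.66, 3.71 and 2.16 CPM in the Sema3g/Bmx cells and 48.8, 60.3 and 44.7 CPM in the Vwf/Selp cells (log2 fold change -3.77 ± 0.41 SE, adjusted p = 1.12e-14). The leukotriene receptor gene Cysltr1 was at 0, 0 and 1.08 CPM in the Sema3g/Bmx cells and 11.6, 10.6 and 13.4 CPM in the Vwf/Selp cells, and Aebp1, a secreted matrix-associated protein, at 0, 3.71 and 2.16 CPM in the Sema3g/Bmx cells and 68.1, 40.7 and 47.3 CPM in the Vwf/Selp cells.

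Some genes of this set rested on few cells. Hbb-bs, the beta globin of red blood cells, was at 35.8, 40.9 and 1919.9 CPM in the Sema3g/Bmx cells and 29.6, 39.2 and 25.9 CPM in the Vwf/Selp cells, and 1 cell of the day 14 library held 1750 of its UMIs (log2 fold change 0.15, adjusted p = 0.931 without that library). Apod, a lipocalin of fibroblasts and glia, was at 22.6, 22.3 and 42.1 CPM in the Sema3g/Bmx cells and 63.0, 563 and 238 CPM in the Vwf/Selp cells, with 351 UMIs in 1 cell of day 7 and 190 in 1 cell of day 14. The fibroblast genes Lum and Mmp2 had 40 and 33 UMIs in 1 cell, and Crispld2 had 35. When the 13 members with at least 10 UMIs of 4 haemoglobin genes or of 6 fibroblast genes were left out, which was chosen after seeing these values, Hbb-bs (log2 fold change 0.33, adjusted p = 0.680) and Apod (-0.43, adjusted p = 0.59) no longer passed, and Lum, Mmp2 and Crispld2 were too low to test. The counts over all genes were then 396 and 402. Hbb-bs was itself among the haemoglobin genes used, and Apod and Lum were among the fibroblast genes. A fall of these genes was thus fixed by the choice of cells and is no independent check.

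**Figure D4:**
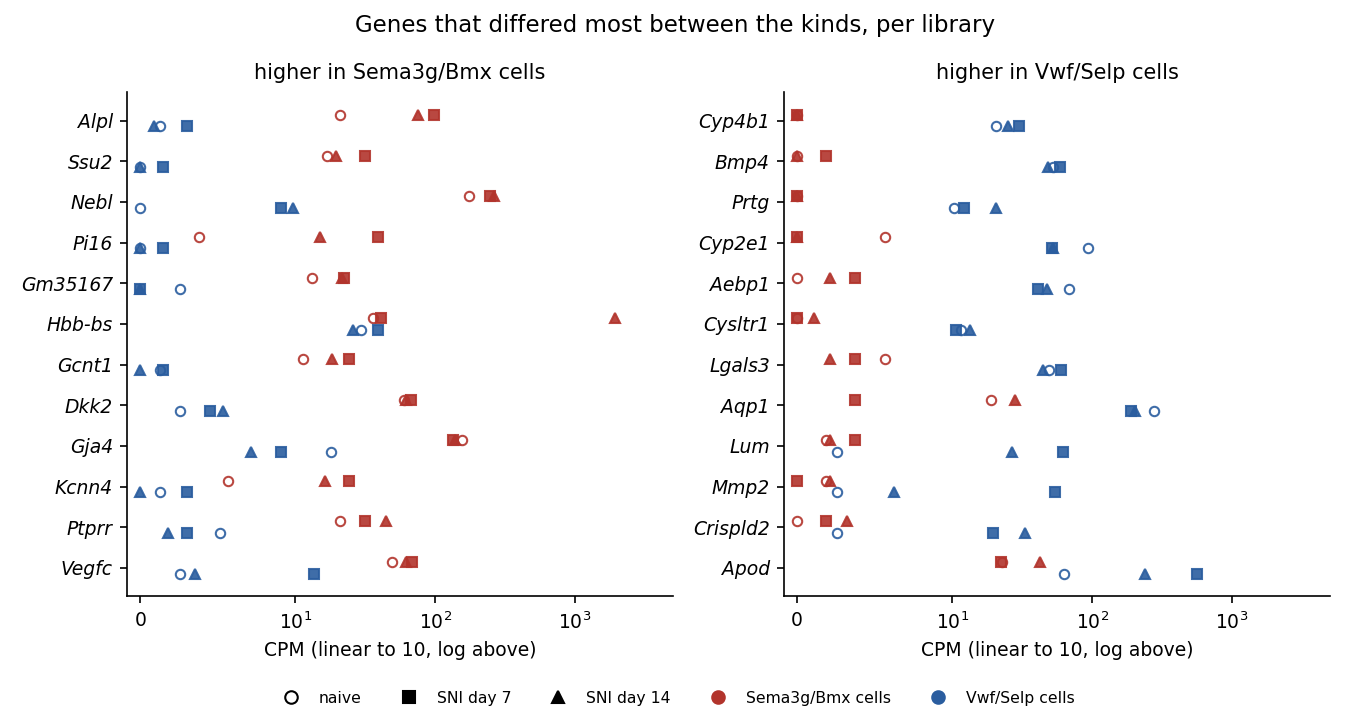
Level per library, in CPM on an axis that is linear up to 10 and logarithmic above, of the 12 genes with the highest and the 12 with the lowest log2 fold change between the kinds among those that passed. Colour marks the kind and the symbol marks the library; no error is drawn because each symbol is 1 summed library. The kinds lie apart for most genes, while Hbb-bs is separate in the day 14 library and Lum, Mmp2, Crispld2 and Apod mainly in the injured libraries.

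Markers of other cell types moved with the kinds in part. Of 8 tested satellite glia genes, 4 were higher in the Sema3g/Bmx cells and 1 lower. Fabp7 was at 128, 394 and 99.3 CPM in the Sema3g/Bmx cells and 65.6, 60.3 and 64.3 CPM in the Vwf/Selp cells (log2 fold change 1.45 ± 0.17 SE, adjusted p = 2.29e-12), with 181 UMIs in 1 cell, against 5628 CPM in the Fabp7 cells. The summed level of the list ran from 2294 to 4480 CPM in the Sema3g/Bmx cells and from 2592 to 3493 CPM in the Vwf/Selp cells, and these ranges overlapped. DESeq2 called 0 of the 8 either way, and the fit without the day 7 library 1 of the 6 it could test. Of 8 tested fibroblast genes, 4 were lower and 1, Slc2a1, which is also on the barrier list, was higher. Of 3 tested pericyte and smooth muscle genes, Tagln and Mylk were lower, and the summed list was at 66.0 to 92.9 CPM in the Sema3g/Bmx cells and 147 to 186 CPM in the Vwf/Selp cells, without overlap. The pericyte genes Pdgfrb and Abcc9 had 10 and 6 UMIs in all, and Cnn1 was at 0. Of 4 tested blood genes all were higher in the Sema3g/Bmx cells, at summed levels of 56.6, 65.0 and 3859 CPM against 50.1, 101.05 and 61.6 CPM. None of them was called with DESeq2 (0 of 4), without the day 14 library (0 of 1), without Scrublet calls (0 of 3) or without the 13 members left out above (0 of 3). Those 13 members were picked in part by haemoglobin genes of this same list. Schwann cell genes gave 1 higher of 5 (Pmp22), neuronal genes 1 higher of 5 (Stmn2, also on the arterial list) and macrophage genes 0 of 1. No lymphatic, lymphocyte or neutrophil gene reached 30 UMIs, and the lymphatic genes Prox1 and Ccl21a were at 0 in the members. The part of these other cells in the differences between the kinds was not tested.

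Compared with the 89 endothelial cells without the 4 genes, 99 genes were higher (1.01%) and 62 lower (0.632%) in the Sema3g/Bmx cells. The Vwf/Selp cells had 97 genes higher (0.989%) and 24 lower (0.245%). A gene was tested if it had at least 30 UMIs over the Sema3g/Bmx and Vwf/Selp sums together. Genes seen mainly in the comparison cells could therefore not enter. The part of this filter in the balance of higher and lower calls was not tested. At a minimum of 100 UMIs the counts were 55 and 73 for the Sema3g/Bmx cells and 35 and 20 for the Vwf/Selp cells. The genes of the arterial list gave 14 higher and 1 lower in the Sema3g/Bmx cells (median log2 fold change 1.08, against 0.10 for all tested), and the genes of the venous list gave 8 higher and 1 lower in the Vwf/Selp cells (median 0.85, against 0.08). Without the library block the counts over all genes were 19 and 17, and 1 and 0. Leaving out the day 7 library gave 34 and 22, and 22 and 5, leaving out the day 14 library gave 35 and 32, and 58 and 20, and leaving out the naïve library gave 40 higher genes in the Vwf/Selp cells. The cells without the 4 genes had a median depth of 2516 UMIs against 5442 in the Sema3g/Bmx cells and 5271.5 in the Vwf/Selp cells, and thinning every cell to 2000 UMIs gave 43 and 38, and 21 and 12. The cells without the 4 genes were the comparison of both kinds, so the calls are not independent.

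The Sema3g/Bmx cells had less Car4 than the cells without the 4 genes (log2 fold change -1.83 ± 0.19 SE, adjusted p = 4.7e-15). Enpep, the peptidase that cleaves angiotensin II, was at 54.7, 35.3 and 37.8 CPM against 228, 115 and 134 CPM. Cyp2e1 was 28.2-fold, 95% conditional interval 7.45 to 157, higher in the cells without the 4 genes, on 11 UMIs against 3. Disp1 (log2 fold change -1.75), the transmembrane collagen Col13a1 (-1.75) and the phosphodiesterase Pde9a (-2.53) were also lower in the Sema3g/Bmx cells. Ifi27l2a (log2 fold change 3.53 ± 0.48 SE, adjusted p = 4.29e-09) was higher in the Sema3g/Bmx cells, as were Vcam1 (9.30-fold, 95% conditional interval 2.53 to 77.5, on 2 UMIs in the comparison cells) and S100a11 (13.3-fold, 95% conditional interval 2.33 to 529, on 1 UMI). Sbspon, Tmeff1 and Zfp64 had 0 UMIs in the cells without the 4 genes and were at least 3.43-fold, 2.86-fold and 2.21-fold higher. These 3 calls were each lost when any 1 library was left out (adjusted p from 0.0955 to 0.435), and DESeq2 called none of Sbspon, Tmeff1, Zfp64, S100a11, Vcam1 and Pde9a. Without the naïve library S100a11 and Disp1 were lost (edgeR adjusted p of 0.133 and 0.121). Without day 7 the lost calls were S100a11, Cyp2e1 and Pde9a (0.211, 0.0842 and 0.0785), and without day 14 Cyp2e1, Pde9a and Col13a1 (0.0837, 0.823 and 0.310).

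For the Vwf/Selp cells, Bmp4, Fabp4, Icam1, Tagln, Ctnnal1 and Nrgn had 0 UMIs in the cells without the 4 genes. The limit of 3 counts set them at least 4.53-fold, 3.68-fold, 2.94-fold, 2.4998-fold, 2.43-fold and 2.33-fold higher. Fabp4, a fatty acid carrier, had UMIs in 9 cells of both kinds and 71 in 1 of them. Esm1 (log2 fold change -2.66 ± 0.51 SE, adjusted p = 0.00025), Lpar1 (-2.67), Fdps (-1.67), Ldhb (-1.47), Sncg (-1.36) and Disp1 (-1.23) were lower in the Vwf/Selp cells. Lpar1 was at 17.5, 230.4 and 14.9 CPM in the cells without the 4 genes, and its call was lost without the day 7 library (log2 fold change -0.43, adjusted p = 0.969). Icam1, Tagln, Ctnnal1, Nrgn and Disp1 were each lost when any 1 library was left out (adjusted p from 0.0555 to 0.513). DESeq2 called none of the 6 genes with 0 UMIs in the comparison cells. Esm1 was lost without the naïve library (adjusted p = 0.0845), Fabp4, Ldhb and Fdps without day 7 (0.430, 0.756 and 0.103), and Fabp4, Ldhb and Sncg without day 14 (0.113, 0.0529 and 0.509), all by edgeR.

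The libraries were compared to see whether these cells changed in number or in gene expression after the nerve injury. With 1 library per condition no test between conditions was possible, the intervals cover counting error only, and a difference of any other source between the libraries cannot be told apart from the injury. Sema3g/Bmx cells were 43.2% of the 206 assigned naïve members (36.3% to 50.3%, 95% exact Clopper-Pearson interval), 43.5% of 161 at day 7 (35.7% to 51.5%) and 41.0% of 251 at day 14 (34.9% to 47.4%). These intervals overlapped widely. The members were 7.55% (6.65% to 8.53%), 6.41% (5.52% to 7.41%) and 7.21% (6.41% to 8.08%) of all cells that passed. Their share of the gated endothelial cells was 84.4%, 89.1% and 92.0%, but it was 73.8%, 75.0% and 77.1% when each cell was thinned to 2000 UMIs. Thinning left out 60, 19 and 32 gated cells. The gates were applied again to the thinned counts, so cells that the main rule kept out for genes of other cell types could enter. The same holds for the gene counts given for thinned cells.

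Few genes differed by 2-fold between libraries in the members. Of 9979 genes with at least 30 UMIs, 49 were at least 2-fold higher at day 7 than in the naïve library (0.491%) and 18 at least 2-fold lower (0.18%). At day 14 these numbers were 24 (0.241%) and 39 (0.391%). These ratios were taken after adding 10 CPM, so a gene under 10 CPM in the naïve library could not be called 2-fold lower. Both injured libraries passed this size in the same direction, with the gene seen in at least 10% of the members of each library where it was higher, for 1 gene that was higher (0.01%) and 10 that were lower (0.1%). With 1 CPM added instead, 27 genes were higher and 24 lower in both. Both comparisons share the naïve library.

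The gene that was higher was Apod, at 42.9, 301 and 136 CPM. Leaving out the 13 members named above brought its log2 ratio from 2.55 to 0.28 at day 7 and from 1.47 to 0.72 at day 14, both under 2-fold. Those members were picked in part by their Apod UMIs, so this fall is no independent check. Outside the endothelium it was at 888, 1158 and 1996 CPM.

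Among the genes that were lower, Gpihbp1 and Rbp7 were under 1 CPM outside the endothelium. Gpihbp1 stood at 319 CPM (291 to 349.5) in the naïve members, 119 CPM (100.82 to 139) at day 7 and 121 CPM (107 to 136) at day 14, with log2 ratios of -1.42 (-1.70 to -1.16) and -1.40 (-1.62 to -1.18) over the naïve library. It was lower in both kinds, at 173, 61.3 and 42.1 CPM in the Sema3g/Bmx cells and 423, 163 and 187 CPM in the Vwf/Selp cells. The gene had a UMI in 52.1%, 36.6% and 36.6% of the members, and all cells outside the endothelium were at 0.385, 0.171 and 0.156 CPM. Rbp7, an intracellular retinol-binding protein, was at 108, 35.0 and 41.3 CPM in the members and 0.165, 0.114 and 0.313 CPM outside the endothelium, with log2 ratios of -1.62 (-2.13 to -1.13) and -1.38 (-1.77 to -1.0024). Its Sema3g/Bmx cells were at 92.4, 16.7 and 33.5 CPM and its Vwf/Selp cells at 116, 48.3 and 45.6 CPM. Of the 19 tested capillary genes, Gpihbp1 alone passed this size in both libraries, and Car4 was at 293, 351 and 273 CPM in the members. In cells with at least 2 UMIs of 1 pair and none of the other, Rbp7 at day 7 (log2 ratio -0.70 after adding 10 CPM) and Gpihbp1 at day 14 (-0.89) were under 2-fold.

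The heat shock genes Hspa1b, Hspa1a and Hsph1, picked by the rule of size, were lower in both injured libraries. The 17 tested immediate early and stress genes as a list had medians of 0.24 and 0.17 against 0.01 for all genes, and 2 of them were at least 2-fold lower in both libraries. Hspa1b was at 288, 54.4 and 33.3 CPM in the members (log2 ratios -2.40 (-2.79 to -2.04) and -3.11 (-3.49 to -2.75)), Hspa1a at 106, 34.2 and 9.77 CPM and Hsph1 at 109, 30.3 and 20.9 CPM. The cells outside the endothelium had less of them too, with Hspa1b at 237, 146 and 153 CPM, Hspa1a at 115, 48.3 and 45.9 CPM and Hsph1 at 135, 80.3 and 75.7 CPM. Phlda1, a pleckstrin homology domain protein, was at 108, 35.0 and 38.6 CPM in the members but at 124, 115 and 147 CPM outside. In the Sema3g/Bmx cells alone it was just under 2-fold lower at day 14 (log2 ratio -0.96). The other 2 genes of this size, named after their values were seen, were Dusp6, a phosphatase of ERK signalling (131, 56.7 and 27.1 CPM), and Gstp1 (34.0, 10.9 and 12.0 CPM).

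Among interferon response genes, 1 of 16 was at least 2-fold lower in both injured libraries, and the list had median log2 ratios of -0.48 and -0.56, against 0.01 for all genes in both comparisons. That gene, Isg15, was at 259 CPM (233 to 286), 117 CPM (99.4 to 138) and 115 CPM (101.43 to 129.9), with log2 ratios of -1.14 (-1.42 to -0.86) and -1.17 (-1.40 to -0.94), and Ifi206 was at 29.95, 4.66 and 8.44 CPM. In the Vwf/Selp cells alone Isg15 stayed under 2-fold (log2 ratios -0.80 and -0.86 after adding 10 CPM), and so did Ifi206 at day 14 (-0.07). Isg15 outside the endothelium was at 93.3, 30.1 and 16.9 CPM. The 13 clock genes had medians of 0.24 and 0.47, and Dbp, a transcription factor of the clock output, was at 99.4, 162 and 223 CPM in the members. Dbp was at 18.2, 40.6 and 53.7 CPM outside the endothelium. Arterial-list genes had medians of 0.30 and 0.23 and venous-list genes of -0.13 and -0.19, and 0 of either list passed 2-fold in both libraries.

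**Figure D5:**
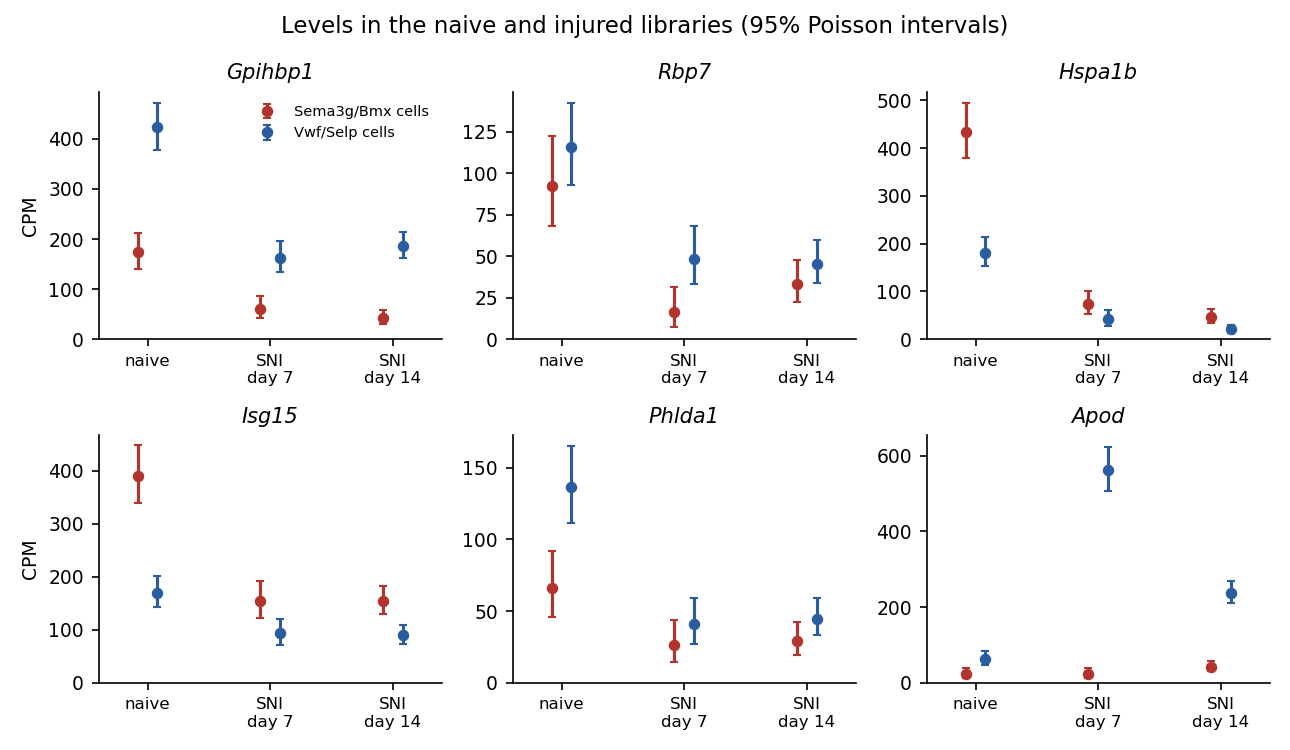
Levels in CPM of 6 genes that differed by at least 2-fold between the naïve library and both injured libraries, for the Sema3g/Bmx cells and the Vwf/Selp cells. Points are summed counts of 1 library and bars are 95% exact Poisson intervals, which cover counting error only. Gpihbp1, Rbp7, Hspa1b, Isg15 and Phlda1 are lower at day 7 and day 14 in both kinds, whereas Apod is high in the Vwf/Selp cells of day 7, where 1 cell held 351 UMIs.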

How the data were processed

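Single cells of mouse DRGs were captured in 3 libraries (naïve, SNI day 7, SNI day 14). The deposited files hold raw UMI counts per gene and barcode, which the authors made with Cell Ranger 3.0.2 on mm10, per the submitters' processing notes, and which list barcodes already called as cells. Single-cell methods beyond these are not given in the sources used here.

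The 3 libraries had 3748, 3281 and 4908 barcodes with 23107376, 22343246 and 36550911 UMIs, and 3152, 2682 and 3828 had 500 genes or more with mitochondrial UMIs up to 20%. The 19 genes of the membership rule were left out of all tests. Counts were summed per library and kind into 9 sums, since cells are not replicates. Genes with at least 30 UMIs over the Sema3g/Bmx and Vwf/Selp sums together were tested, in all 3 contrasts. The test was that of edgeR 4.0.16 (quasi-likelihood test, TMM scaling, library as a block, 4 residual degrees of freedom) at a Benjamini-Hochberg adjusted p under 0.05. The library block pairs kinds captured from the same mice. DESeq2 1.42.0 was an alternative. Counts were also simulated for 9810 genes in the Sema3g/Bmx against Vwf/Selp contrast. There 163 of 200 genes changed 2-fold were recovered with 3 false calls, and 199 of 200 changed 4-fold with 8 false calls. The simulation took its spread from the same fit and held no difference between libraries and no single cell with extreme counts. The changed genes were not drawn from those with the lowest counts. It therefore checks the procedure only and does not give the rate of false calls in the data. Between libraries no test was made. Intervals are 95% exact Poisson, conditional binomial or Clopper-Pearson intervals and cover counting error only.

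Genes were named by rule: the 12 highest and 12 lowest log2 fold changes between the kinds among genes that passed with the same direction in all libraries, 6 each way against the cells without the 4 genes, up to 8 each way between libraries, and genes of 25 lists. The members and lists were chosen with earlier results of these data known. Doublets were called with Scrublet (scanpy 1.11.5, expected rate 5%) and kept, and they were left out in an alternative. Further alternatives were stricter and absent cell filters, 4 of 6 endothelial genes, cells with at least 2 UMIs of 1 pair and none of the other, Sema3g against Selp alone, other scaling and filters, each library left out, thinning to 2000 UMIs, and leaving out cells with at least 10 haemoglobin or fibroblast UMIs. The absent cell filter, the thinning for the gene tests and the last of these were chosen after seeing the data.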

Additional observations from a re-analysis of the deposited data

How the results depend on the processing

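The limits are 1 library per condition, kinds often set by few UMIs, and shallow comparison cells. Genes differing between Sema3g/Bmx and Vwf/Selp cells (395 higher, 400 lower) numbered 118 and 143 with the DESeq2 test, 174 and 150 with no library block, 171 and 198 in cells with at least 2 UMIs of 1 pair and none of the other, and 92 and 88 in thinned cells. Sema3g against Selp alone gave 148 lower. Leaving out 1 library gave 230 to 312 higher and 241 to 287 lower.

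Against the cells without the 4 genes, the Sema3g/Bmx cells (99 higher, 62 lower) had 21 higher with DESeq2, 55 at a minimum of 100 UMIs, 57 with strict pairs, 19 and 17 without the library block, 43 and 38 when thinned, and 34 to 89 higher and 22 to 56 lower without 1 library. The Vwf/Selp cells (97 higher, 24 lower) had 17 and 7 with DESeq2, 1 and 0 without the library block, 21 and 12 when thinned, 35 higher at 100 UMIs, 52 higher with strict pairs, 12 lower under the stricter cell filter (1000 genes, 10% mitochondrial UMIs), 11 lower without Scrublet calls, and 22 to 58 higher and 5 to 22 lower without 1 library. The causes were not tested, beyond the fewer genes or cells that the minimum of 100 UMIs, thinning, strict pairs and the left-out libraries leave. The blocked fit pairs kinds within a library. No paired analysis was possible between conditions because each had 1 library and the labels give no shared replicate numbers.

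The members' share of gated cells was 66.2%, 66.7% and 76.7% with strict pairs and 73.8%, 75.0% and 77.1% when thinned. Genes higher in both injured libraries (1) numbered 2 with the stricter cell filter, without Scrublet calls and with 4 of 6 endothelial genes, 27 with strict pairs and with a pseudocount of 1 CPM, 5 with the mean over cells, 29 in Sema3g/Bmx cells and 6 in Vwf/Selp cells alone. Genes lower in both (10) numbered 24 with strict pairs and with a pseudocount of 1 CPM, 16 with the mean over cells and 25 in Sema3g/Bmx cells alone. Reversed log2 values were Apod 3.85 and Lum 5.39 between kinds under Sema3g against Selp, Hbb-bs -0.66 with strict pairs, Ldhb 0.0073 in thinned Vwf/Selp cells, and Apod at day 7 -0.96 with strict pairs and -0.015 in Sema3g/Bmx cells. Of the other named values, 724 kept their direction and call and 157 kept the direction only. The cause was not tested.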
